A study of Mus musculus with 18 samples.

Results

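The 8 libraries of *nsHif1a*- and eGFP-transfected 661W cells were divided by replicate number. Replicates 1 and 2 of each vector (set 1-2) were compared with replicates 3 and 4 (set 3-4), first across both vectors and then for the response to *nsHif1a* within each set. These libraries were 8 of the 18 in the series, 4 in each set and 2 for each vector within a set. 661W is a photoreceptor-like cell line of mouse origin, and all 8 libraries came from cells harvested 20 h after plasmid transfection at normal oxygen. *nsHif1a* encodes a Myc-tagged mouse HIF1A whose changed residues keep it stable and active in oxygen, and both it and the eGFP control were driven by the ubiquitous CMV promoter. The other 10 libraries, from retinas of injected mice, were not used here.

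The labels give no culture, passage, day or batch for the replicate numbers, so what sets 1-2 and 3-4 have in common beyond their numbers is not stated. If the 2 libraries of a vector within a set came from 1 culture, the *p*-values below measure technical spread only. The division was also chosen with earlier results of these data known, so a *p*-value for it is not independent evidence that the sets differ. Most photoreceptor markers were close to absent. Levels in CPM, the count of a gene scaled to a common library total, reached at most 0.180 for the cone opsin *Opn1sw*, 0.0601 for cone arrestin *Arr3* and 0.130 for the rod transcription factor *Nrl*. Of the 12 cone and 13 rod markers, 9 of each were below 1 CPM in every library. Others were detected, reaching 11.7 CPM for *Pde6a*, 5.71 for *Rom1* and 2.59 for *Sag* among the rod markers and 3.02 for the cone marker *Gngt2*.

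HIF1A is the oxygen-regulated subunit of the transcription factor HIF1, which binds hypoxia response elements and raises genes of glucose uptake, glycolysis, mitochondrial turnover and angiogenesis. Other programs of a stressed cell have their own regulators. SREBP2 raises the enzymes of cholesterol synthesis when membrane sterol is low, STAT and IRF factors raise antiviral genes after interferon, and ATF4 raises amino acid and redox genes when the translation factor eIF2 is phosphorylated. Such programs can be read from groups of target genes, and lists of 28 programs were therefore followed through both sets. Members of the lists are named for their size of difference or their role, with their values seen, and genes of low counts with larger but uncalled differences are in part left out.

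Libraries of different sets differed more than libraries of the same set. The squared count difference of each gene was scaled by its sampling variance, and the median over genes was taken. For 2 libraries with the same vector and set, this median was 1.47 to 1.59 times that of sampling alone (4 pairs). For pairs with the same vector but different sets it was 3.62 to 8.33 times (8 pairs). These are ratios of squared differences, so the differences themselves are less far apart. On the first principal component, which held 47.7% of the variance, *nsHif1a* libraries 1 and 2 stood at 49.8 and 51.8 and the other 6 libraries between -25.6 and -8.50. The second component, with 17.7%, separated the eGFP libraries of set 1-2 from the *nsHif1a* libraries of set 3-4, with the other 4 in between. *nsHif1a* libraries 1 and 2 thus stood apart from all others, and results below that depend on them are given beside those of the other 6 libraries. Where 4 values stand in a row, they are those of libraries 1 to 4 of 1 vector.

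**Figure D1:**
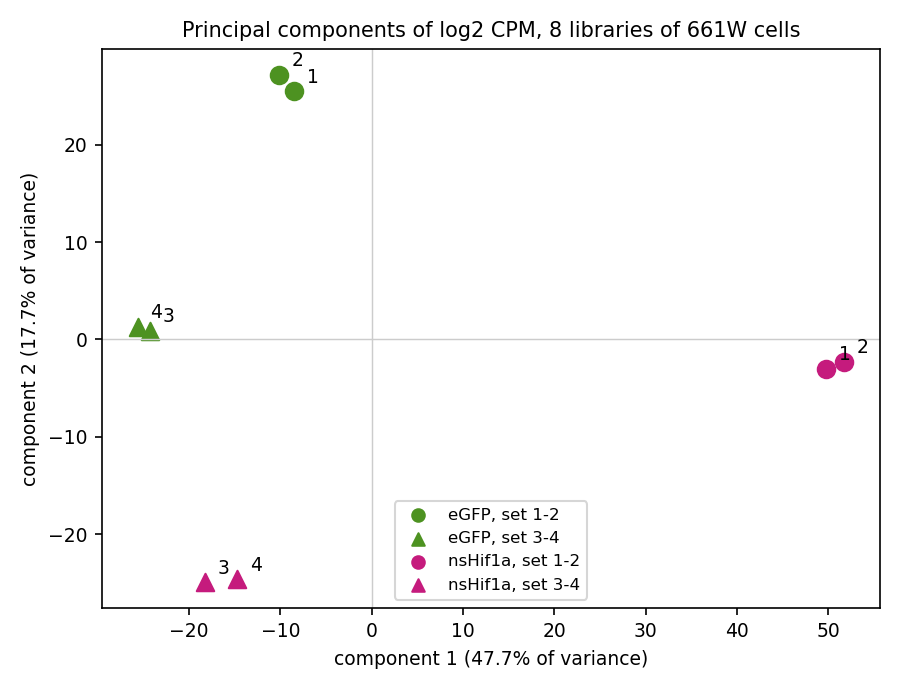
Principal components of log2 CPM of the genes tested, with 1 point per library (green, eGFP; magenta, *nsHif1a*; circles, set 1-2; triangles, set 3-4; the digit is the replicate number). *nsHif1a* libraries 1 and 2 lie alone at the right, at 49.8 and 51.8 on component 1.

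Sequencing depth did not follow this pattern. The libraries held 13424326 to 17809585 counts, so that 3 counts corresponded to 0.168 to 0.225 CPM. Mitochondrial transcripts made up 2.51% and 2.57% of the counts in eGFP libraries 1 and 2 against 2.35% and 2.39% in 3 and 4, and 2.35% and 2.38% against 2.24% and 2.22% with *nsHif1a*, so that set 1-2 was slightly higher with each vector. The part of this in the results was not tested. Ribosomal protein transcripts made up 1.15% to 1.33%.

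Differences between the sets were tested with limma over 16907 genes, with Benjamini-Hochberg adjustment of the *p*-values. A gene was called at an adjusted *p* under 0.05 and a log2 difference beyond 0.5, and a value after ± is the standard error (SE) of the fit unless SD is written. With eGFP, 244 genes (1.44% of those tested) were higher and 170 (1.01%) lower in set 3-4. With *nsHif1a*, 973 genes (5.76%) were higher and 1294 (7.65%) lower in set 3-4. The 2 comparisons share no library, and 148 of the genes that were higher with *nsHif1a* were also higher with eGFP (15.2% of the former and 60.7% of the latter), while 5 were called in the opposite direction (*Sprr1a*, *Gm15483*, *Inpp4b*, *Gm58982* and *Nrn1*). Of the genes that were lower, 120 were shared (9.27% and 70.6%) and 5 again were called in opposite directions (*Ifi206*, *Gm2148*, *Gm6543*, *Gas6* and *Gdf15*). Over 11796 genes of at least 5 CPM, the set difference with eGFP and with *nsHif1a* had a Pearson *r* of 0.50 across genes, which are not independent replicates.

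With vector as a covariate, 474 genes (2.80%) were higher and 604 (3.57%) lower in set 3-4. With the counts of each pair of libraries added, which leaves 1 residual degree of freedom, 0 genes were called by limma (2352 of 18117 had an unadjusted p under 0.05). A replicate block left 281 higher and 307 lower. Its error comes from within replicate numbers only, so it does not account for the spread between replicate numbers of a set. Without any 1 eGFP library the count rose to between 773 and 916 higher and between 1081 and 1187 lower genes, and without any 1 *nsHif1a* library it dropped to between 229 and 242 higher and between 194 and 212 lower. Without *nsHif1a* libraries 1 and 2, an alternative chosen after seeing the data, 232 genes were higher and 166 lower. The set difference is therefore given for each vector below.

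The response to *nsHif1a* was larger in set 1-2. There, 1318 genes (7.80%) were higher and 674 (3.99%) lower with *nsHif1a* than with eGFP, against 186 (1.10%) higher and 38 (0.225%) lower in set 3-4. Both sets called 128 of the higher genes (9.71% of those of set 1-2 and 68.8% of those of set 3-4) and 3 of the lower genes. A further 5 genes were called higher in set 1-2 and lower in set 3-4 (*Gm2148*, *Cp*, *Gm6543*, *Cxcl1* and *Gm9711*), and 5 the reverse way (*Sprr1a*, *Gm36488*, *Rph3a*, *Krt16* and *Gm58982*). The interaction of set with vector, which tests the difference between the 2 responses itself, was called for 1229 genes. For 469 of them (2.77%) the log2 difference between *nsHif1a* and eGFP was more positive in set 3-4, and for 760 (4.50%) it was less positive or more negative. Since *nsHif1a* libraries 1 and 2 are the whole of 1 of the 4 groups, the interaction and what sets these 2 libraries apart cannot be told apart.

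*Hif1a* itself, at chr12:73948149-73996321 on the plus strand of GRCm39, was checked first. Its counts sum the endogenous gene and the plasmid. In set 1-2 it measured 152 and 150.1 CPM with eGFP and 1219.7 and 1239 CPM with *nsHif1a*. In set 3-4 it measured 161 and 164 CPM with eGFP and 1954 and 1823 CPM with *nsHif1a*. Every *nsHif1a* library was above every eGFP library, by 3.02 ± 0.04 log2 units in set 1-2 and 3.54 ± 0.04 in set 3-4. The *nsHif1a* libraries of set 3-4 held more *Hif1a* than those of set 1-2, at 1888 ± 92.7 against 1229 ± 13.5 CPM (SD, n = 2 each), and the interaction was 0.52 ± 0.06 (adjusted *p* = 1.17e-06, limma). The larger response over all genes was therefore found in the set with the lower *Hif1a* level.

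HIF target genes responded in both sets, and a part of them more strongly in set 3-4. Of the 47 tested of 49 listed, 23 were called higher with *nsHif1a* in set 1-2 and 26 in set 3-4, with median differences of 0.48 and 0.53 (all genes tested, 0.00 and -0.01). The interaction had a median of 0.16, with 10 genes called larger in set 3-4 and 2 smaller. These are 21.3% and 4.26% of the list, against 2.77% and 4.50% of all genes tested. The share called smaller was thus near that of all genes. *Ak4*, a mitochondrial adenylate kinase, showed the largest interaction among the 10. It measured 7.94 and 7.65 CPM with eGFP and 29.3 and 26.9 CPM with *nsHif1a* in set 1-2. In set 3-4 the values were 4.82 and 6.23 CPM with eGFP and 43.6 and 38.8 CPM with *nsHif1a*. The *nsHif1a* libraries of the 2 sets did not overlap, and the response was 1.85 ± 0.13 in set 1-2 and 2.93 ± 0.15 in set 3-4, a difference of 1.07 ± 0.20 (adjusted *p* = 5.02e-04, limma).

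The glucose transporter *Slc2a3* responded by 1.57 ± 0.14 in set 1-2 and 2.19 ± 0.14 in set 3-4. The lactate exporter *Slc16a3* responded by 1.82 ± 0.11 and 2.47 ± 0.12. *Ero1a*, the oxidase that drives disulfide formation in the endoplasmic reticulum, responded by 0.84 ± 0.06 and 1.34 ± 0.06. All of these and *Mxi1*, *Ankrd37*, *Pfkfb3*, *Higd1a*, *Egln3* and *Rora* had a called interaction in the same direction. *Mxi1*, an antagonist of MYC, went from 0.75 ± 0.11 to 1.5 ± 0.12, and *Egln3*, a prolyl hydroxylase that marks HIF1A for degradation, from 0.11 ± 0.14 to 0.63 ± 0.11. Several classical targets did not show a called interaction. *Bnip3*, a mitophagy receptor, rose by 1.72 ± 0.10 and 2.0 ± 0.10, with an interaction of 0.27 ± 0.15. *Ndrg1*, a hypoxia-induced stress gene, rose by 1.25 ± 0.05 and 1.24 ± 0.05, and *Vegfa*, the main angiogenic growth factor, by 0.97 ± 0.05 and 0.88 ± 0.04.

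For *Ddit4* and *P4ha1* the response was smaller in set 3-4. *Ddit4*, an inhibitor of mTORC1 that ATF4 also induces, measured 42.7 and 42.8 CPM in *nsHif1a* libraries 1 and 2 and 27.8 and 29.4 CPM in 3 and 4, with 14, 15.9, 15.3 and 17.5 CPM in the eGFP libraries. Its response dropped from 1.52 ± 0.09 in set 1-2 to 0.82 ± 0.09 in set 3-4 (interaction -0.70 ± 0.13). *P4ha1*, a subunit of the collagen prolyl hydroxylase, responded by 0.94 ± 0.04 and 0.43 ± 0.05. Among the 16 glycolysis and lactate enzyme genes tested, 2 were called higher in set 1-2 and 3 in set 3-4, and none had a called interaction. *Ldha*, which makes lactate, was at 667 and 654 CPM in *nsHif1a* libraries 1 and 2 and at 808 and 759 CPM in 3 and 4, and its interaction of 0.41 ± 0.04 stayed under the fold threshold.

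**Figure D2:**
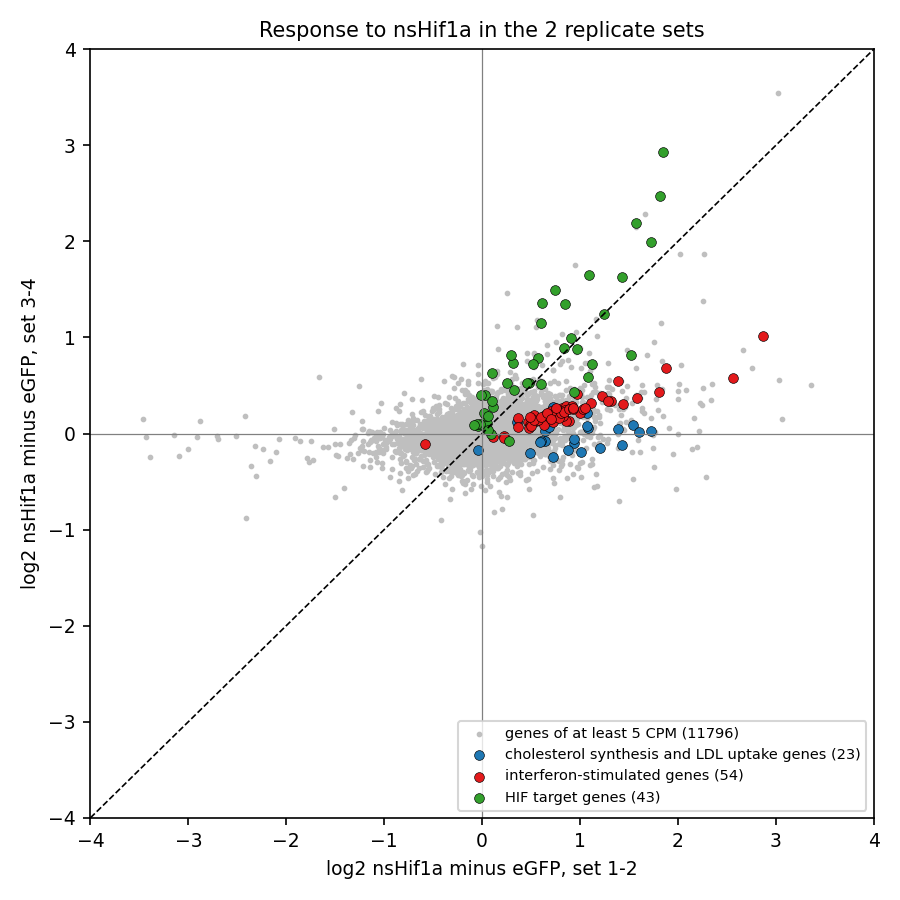
Log2 difference between *nsHif1a* and eGFP in set 1-2 (horizontal axis) and set 3-4 (vertical axis) for 11794 genes of at least 5 CPM, with 2 further genes beyond the axes; the dashed line marks equal responses. Of the listed genes tested, 35 of 47 HIF target genes (green) had the larger value in set 3-4, against 1 of 54 interferon-stimulated (red) and 0 of 25 cholesterol synthesis genes (blue).

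Cholesterol synthesis and uptake genes gave the largest difference between the sets of any program list. Of the 25 genes, 21 were called higher with *nsHif1a* in set 1-2 and 0 in set 3-4, with median differences of 0.88 and -0.06. The interaction was called smaller in set 3-4 for 20 of the 25 and larger for 0, with a median of -0.96, and all 25 interactions were negative. Between the *nsHif1a* libraries, 23 of the 25 were lower in set 3-4 (median -1.06), while between the eGFP libraries 0 of the 25 were called and the median was -0.21.

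*Insig1*, the sterol-sensing anchor that holds SREBP in the endoplasmic reticulum and is itself an SREBP target, was at 39.1 and 39.1 CPM with eGFP and 116 and 122 CPM with *nsHif1a* in set 1-2. In set 3-4 it was at 35.6 and 35.3 CPM with eGFP and 34.7 and 37.2 CPM with *nsHif1a*. Only *nsHif1a* libraries 1 and 2 were high, and the 4 eGFP libraries and *nsHif1a* libraries 3 and 4 lay within a narrow range. The interaction was -1.58 ± 0.09 (adjusted *p* = 9.39e-11, limma). *Fdps*, which makes farnesyl diphosphate, had the same shape, with 123 and 129 CPM in *nsHif1a* libraries 1 and 2, 39.2 and 36.5 CPM in 3 and 4, and 38.3, 37.7, 38.0 and 36 CPM in the eGFP libraries. *Idi1* (isopentenyl diphosphate isomerase) and *Cyp51* (lanosterol demethylase) had interactions of -1.54 ± 0.11 and -1.45 ± 0.07.

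Genes for another step of the pathway and for its regulator had called interactions too. *Hmgcs1*, which makes HMG-CoA, responded by 0.94 ± 0.06 in set 1-2 and -0.09 ± 0.07 in set 3-4. *Srebf2*, which encodes SREBP2, responded by 0.59 ± 0.04 and -0.09 ± 0.05. The 5 genes without a called interaction included *Sqle*, the squalene epoxidase, whose interaction of -0.44 ± 0.07 was under the fold threshold.

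The promoter of *Hmgcs1* is shown because it was the one promoter of the list in which the sterol response element searched, TCACNCCAC on either strand, was found. Only 17 of the 25 genes were matched to a promoter in the RefSeq table (build GRCm38.p6), under 80% of the list, so a share of the list with the element would be void. The window at chr13:119690101-119690400 on the plus strand, from 250 bases before to 50 bases after the start of the gene, is printed with the match in capitals. Of all 32851 windows of this length, 1.24% held a match, which is a description of letters and not of binding.
Hmgcs1: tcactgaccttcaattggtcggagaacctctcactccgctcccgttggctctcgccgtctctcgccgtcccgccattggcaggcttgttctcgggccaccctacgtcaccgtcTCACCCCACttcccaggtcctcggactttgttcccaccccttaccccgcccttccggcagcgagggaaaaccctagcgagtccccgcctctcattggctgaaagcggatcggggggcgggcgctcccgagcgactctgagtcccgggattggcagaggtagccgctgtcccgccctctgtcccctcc

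Fatty acid and lipid synthesis genes, targets of SREBP1, were called in smaller number. Of 20 tested, 8 were called higher with *nsHif1a* in set 1-2 and 0 in set 3-4, and the interaction was called smaller in set 3-4 for 7 and larger for 0 (median -0.33). *Fads2*, the delta-6 desaturase, had an interaction of -1.0 ± 0.06, and *Acss2*, which activates acetate, of -1.29 ± 0.27. The stearoyl-CoA desaturase *Scd2* differed between the sets with both vectors. It measured 442 and 422 CPM in eGFP libraries 1 and 2 and 239 and 258 CPM in 3 and 4, and 845, 859, 284 and 304 CPM in *nsHif1a* libraries 1 to 4. Fatty acid synthase, *Fasn*, was not called, at -0.22 ± 0.03 in set 1-2 and -0.13 ± 0.03 in set 3-4.

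Interferon-stimulated genes were the second large program. Of 54 tested of 55 listed, 44 were called higher and 1 lower with *nsHif1a* in set 1-2, and 4 higher and 0 lower in set 3-4 (medians 0.79 and 0.20). The interaction was called smaller in set 3-4 for 33 and larger for 0, with a median of -0.56. Unlike with *nsHif1a*, where 26 genes were lower and 1 higher in set 3-4, none of the 54 was called between the eGFP sets (median 0.07). The genes called in set 3-4 were *Ifit2*, *Mx1*, *Mx2* and *Gbp2*, and the 1 lower gene of set 1-2 was *Ifi27*. Many of these genes were already abundant with eGFP, such as *Isg15*, the ubiquitin-like antiviral modifier, at 790.0 and 766 CPM in set 1-2 and 824 and 810.3 CPM in set 3-4.

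*Ifit2*, an antiviral RNA-binding protein, measured 281 and 273 CPM with eGFP and 1646 and 1627 CPM with *nsHif1a* in set 1-2. In set 3-4 the values were 321 and 321 CPM with eGFP and 442 and 517 CPM with *nsHif1a*. The *nsHif1a* libraries were above the eGFP libraries in both sets, by 2.56 ± 0.04 and 0.57 ± 0.05, and the interaction was -1.99 ± 0.06 (adjusted *p* = 5.67e-14, limma). *Mx1*, a GTPase that blocks viral replication, rose by 2.87 ± 0.08 and 1.02 ± 0.09, with 475 and 462 CPM in *nsHif1a* libraries 1 and 2 and 118 and 154 CPM in 3 and 4. *Ifnb1*, the gene of interferon beta, rose in both sets from few counts, with 0.180, 0.195, 0.529 and 0.600 CPM with eGFP and 2.81, 2.87, 2.46 and 5.21 CPM with *nsHif1a*, and its interaction was not called.

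The promoters of *Cxcl10*, a chemokine for T cells that rose by 1.58 ± 0.04 in set 1-2 and showed 0.36 ± 0.05 in set 3-4, and of *Igtp*, an interferon-induced GTPase with 1.44 ± 0.04 and 0.30 ± 0.05, are shown with the interferon-stimulated response element GAAANNGAA, searched on both strands, in capitals. Among the genes of the list with a match, they had the largest interactions, at -1.22 ± 0.06 and -1.14 ± 0.06. The RefSeq table held 41 of the 54 genes, again under 80%, so the share of the list with the element is not given. Among all 32851 windows, 8.56% held it. The *Cxcl10* window is chr5:92348840-92349139 on the minus strand and the *Igtp* window chr11:58199306-58199605 on the plus strand, both in GRCm38.p6.
Cxcl10: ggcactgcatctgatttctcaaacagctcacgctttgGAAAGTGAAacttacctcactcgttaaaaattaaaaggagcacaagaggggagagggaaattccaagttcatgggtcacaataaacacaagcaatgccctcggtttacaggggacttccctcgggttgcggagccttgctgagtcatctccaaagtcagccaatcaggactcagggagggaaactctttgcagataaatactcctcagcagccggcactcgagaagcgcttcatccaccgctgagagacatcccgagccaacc
Igtp: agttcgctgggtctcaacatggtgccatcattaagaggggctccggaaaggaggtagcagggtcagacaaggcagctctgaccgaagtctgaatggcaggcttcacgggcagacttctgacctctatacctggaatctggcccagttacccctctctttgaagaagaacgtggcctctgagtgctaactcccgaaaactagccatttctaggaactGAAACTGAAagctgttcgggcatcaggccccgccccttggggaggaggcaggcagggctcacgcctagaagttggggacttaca

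Of 21 MHC class I and antigen processing genes, many of them interferon-inducible, 13 were called higher with *nsHif1a* in set 1-2 and 0 in set 3-4, and the interaction was smaller in set 3-4 for 10 and larger for 0 (median -0.47). *Tap1*, a peptide transporter, measured 402 and 372 CPM in *nsHif1a* libraries 1 and 2 against 202 and 186 CPM with eGFP, and 223 and 239.5 against 206 and 200.1 CPM in set 3-4. *Psmb9*, an immunoproteasome subunit, had an interaction of -1.01 ± 0.09. *H2-Q6*, a class I gene whose reads near-identical neighbours can share, was lower in set 3-4 with eGFP too, with a difference of -0.66 ± 0.05. The abundant *B2m*, the light chain of class I molecules, was not called in either set, at 0.08 ± 0.02 and -0.05 ± 0.02.

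Inflammatory genes outside these lists were mixed. Of 24 NF-kB target and chemokine genes tested of 28, the interaction was smaller in set 3-4 for 6 and larger for 1 (median -0.39). The largest value, that of the adhesion molecule gene *Icam1* (-2.16 ± 0.95), rested on at most 1.07 CPM and was not called. The monocyte chemokine *Ccl2* measured 319, 317, 278 and 257 CPM with eGFP and 507, 522, 199.8 and 215 CPM with *nsHif1a*. It rose in set 1-2 by 0.69 ± 0.03, and in set 3-4 its difference of -0.37 ± 0.04 was negative but under the fold threshold. *Cxcl1*, a neutrophil chemokine, was called in both sets in opposite directions, at 0.80 ± 0.14 and -0.66 ± 0.18. *Ptgs2*, the inducible prostaglandin synthase, was the 1 gene whose interaction was larger, and it was higher in set 3-4 with both vectors, with 359.9, 376, 639.8 and 582 CPM with eGFP and 243, 254, 631 and 625 CPM with *nsHif1a*. Of 23 nucleic acid sensing and interferon genes, 4 interactions were smaller in set 3-4 and 0 larger (median -0.26). They included *Tlr3*, an endosomal RNA sensor, at -0.90 ± 0.07, and the DNA exonuclease *Trex1*, at -0.88 ± 0.10.

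More integrated stress response genes rose with *nsHif1a* in set 1-2 than in set 3-4. Of 31 tested of 32, 22 were called higher in set 1-2 and 7 in set 3-4, with medians of 0.73 and 0.32. The interaction was called smaller in set 3-4 for 7 and larger for 0 (median -0.33). Here the eGFP libraries differed too, with 5 of the 31 higher in set 3-4 and 0 lower (median 0.18). The 5 were *Chac1*, *Gdf15*, *Ppp1r15a*, *Slc7a11* and *Trib3*. *Gdf15*, a stress-induced cytokine, measured 21.8, 23.9, 40.6 and 41.6 CPM with eGFP and 80.8, 84.2, 42.0 and 51.4 CPM with *nsHif1a*. The eGFP libraries of set 3-4 were above those of set 1-2, and *nsHif1a* libraries 3 and 4 were below 1 and 2, so that its responses were 1.85 ± 0.09 and 0.18 ± 0.08.

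*Chac1*, which degrades glutathione, followed with 0.83 ± 0.06 and 0.09 ± 0.06, and its eGFP level was 0.66 ± 0.06 higher in set 3-4. *Trib3*, a pseudokinase induced by ATF4, rose by 1.76 ± 0.08 and 0.95 ± 0.07, and *Atf3*, a stress-induced transcription factor, by 2.26 ± 0.13 and 1.38 ± 0.12. *Atf4* itself was called in set 1-2, at 0.74 ± 0.03, and in set 3-4 it was 0.32 ± 0.03. The neighbouring ER chaperone and ERAD list changed little, with 4 of 29 genes higher in set 1-2, 0 in set 3-4 and 1 called interaction, that of *Herpud1* (-0.61 ± 0.09), a component of ER-associated degradation.

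**Figure D3:**
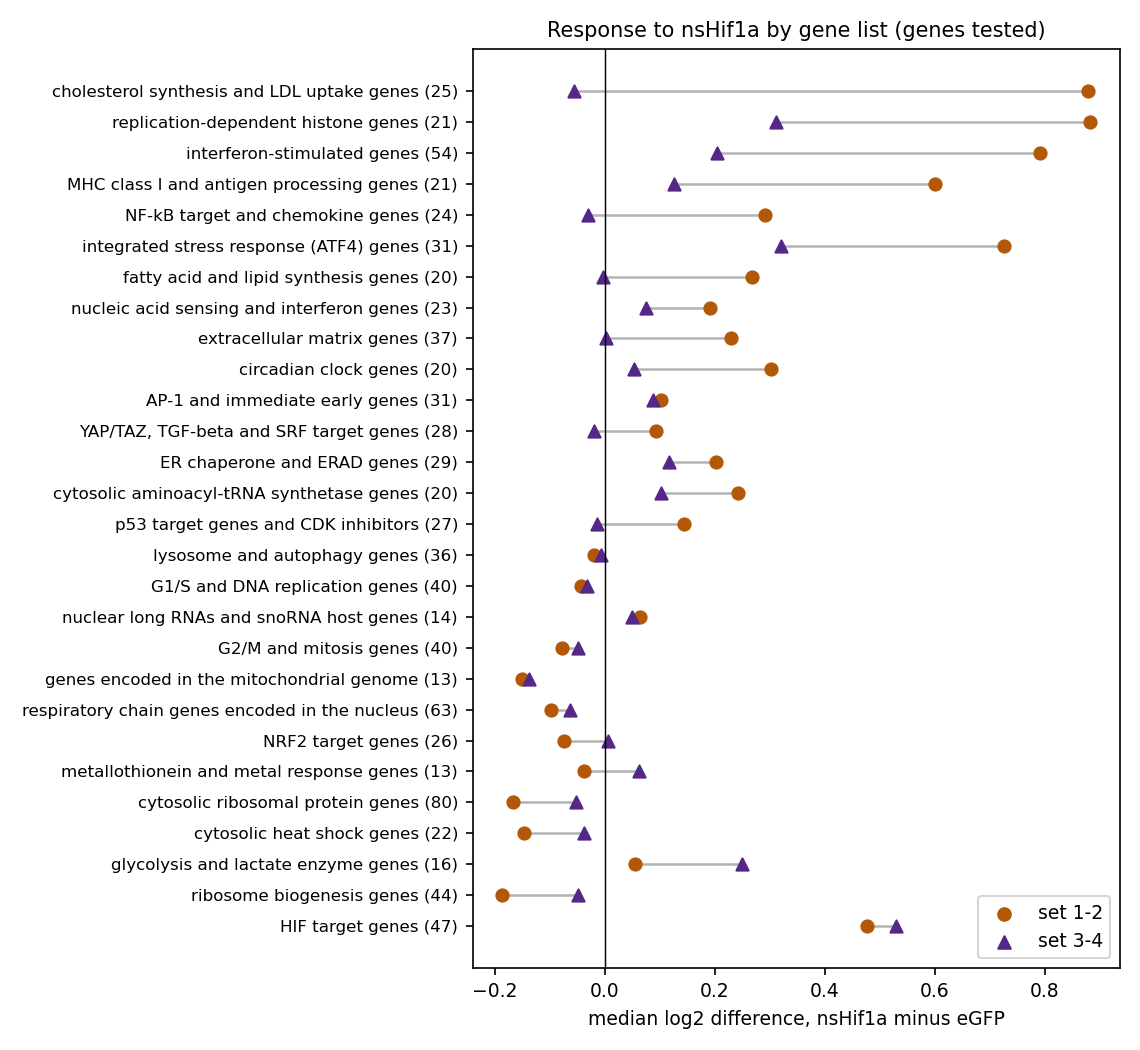
Median log2 difference between *nsHif1a* and eGFP in set 1-2 (circles) and set 3-4 (triangles) for 28 gene lists, with the number of genes tested in brackets, sorted by the median interaction. Cholesterol synthesis genes have the longest line, from 0.88 to -0.06, and HIF target genes lie at 0.48 and 0.53.

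Replication-dependent histone genes had medians of 0.88 in set 1-2 and 0.31 in set 3-4, but only 21 of 47 were tested. These transcripts are mostly not polyadenylated, and the libraries were made from poly(A) RNA. The interaction was smaller in set 3-4 for 4 of the 21 (median -0.62), among them *H4c9* at 11.2, 12.1, 6.08 and 7.28 CPM with *nsHif1a* against 6.13, 7.07, 6.82 and 7.35 CPM with eGFP. Of 40 G1/S and DNA replication genes, 1 interaction was called, that of *Rrm2*, a ribonucleotide reductase subunit on chromosome 12, and of 40 G2/M and mitosis genes 0 were called, with medians of 0.01 for both lists. *Rrm2* was at 264, 260.0, 407 and 402 CPM with eGFP and 140.4, 150.5, 358 and 360.5 CPM with *nsHif1a*.

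Few genes of translation and respiration had a called interaction. Of 80 cytosolic ribosomal protein genes, 1 had a called interaction, and the median interaction was 0.10, with 67 of the 80 positive. For 44 ribosome biogenesis genes the median was 0.14 with 1 called, for 22 cytosolic heat shock genes 0.11 with 0 called, and for 63 nuclear genes of the respiratory chain 0.03 with 0 called. The 13 genes of the mitochondrial genome had 0 called interactions and a median of 0.01.

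Some lists had set differences of the same sign with both vectors and few or no called interactions. Lysosome and autophagy genes had a median set difference of 0.21 with eGFP and 0.22 with *nsHif1a*, with 1 and 5 of 36 called higher (2.78% and 13.9%, against 1.44% and 5.76% of all genes) and 0 and 1, *Tfeb*, lower. With eGFP 32 of the 36 differences were positive. None of the 36 had a called interaction (median -0.01). YAP, TGF-beta and SRF target genes had medians of 0.29 and 0.13, with 25 and 18 of 28 positive, 2 and 4 called higher and 0 and 2 lower. G2/M and mitosis genes had medians of -0.13 and -0.10, with 38 and 34 of 40 negative and 0 called. *Gpnmb*, a lysosomal membrane glycoprotein, measured 373, 386, 551 and 551 CPM with eGFP and 328, 330.0, 549.6 and 550.2 CPM with *nsHif1a*, and was called with both vectors. *Psap*, the precursor of the saposins, was called with *nsHif1a* at 0.57 ± 0.02, and with eGFP its difference was 0.30 ± 0.02. The cell cycle inhibitor *Cdkn1a* (p21) was also higher with both vectors, with 163, 166, 282 and 286 CPM with eGFP and 185, 194, 339 and 326 CPM with *nsHif1a*. Its set difference was 0.79 ± 0.04 and 0.81 ± 0.03, its responses 0.20 ± 0.04 and 0.23 ± 0.03, and the 95% interval of its interaction ran from -0.07 to 0.13.

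*Hmox1*, the heme oxygenase that HIF1A and NRF2 both induce, measured 158 and 169 CPM with eGFP in set 1-2 and 337 and 324 CPM in set 3-4. The *nsHif1a* libraries held 352, 337, 495 and 499.8 CPM, so that the response was 1.08 ± 0.04 and 0.59 ± 0.03 and the interaction, -0.49 ± 0.05, was just under the fold threshold. Among the immediate early genes, 3 of 31 were higher with eGFP and 8 with *nsHif1a* in set 3-4, with 0 and 2 lower. The higher genes were 9.68% and 25.8% of the list, against 1.44% and 5.76% of all genes tested. The lower genes were 0% and 6.45%, against 1.01% and 7.65%. *Dusp5* and *Dusp4*, phosphatases that ERK signalling induces, were higher in set 3-4 by 0.50 ± 0.06 and 0.60 ± 0.04 with eGFP and by 1.30 ± 0.07 and 1.05 ± 0.04 with *nsHif1a*. Both were called with each vector.

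Of 27 p53 target genes, 5 interactions were smaller in set 3-4 and 0 larger. *Btg2*, an antiproliferative gene, responded by 1.46 ± 0.10 in set 1-2 and 0.28 ± 0.10 in set 3-4. Of 13 metal response genes, 3 interactions were larger in set 3-4 (*Mt1*, *Mt2* and *Slc39a10*). The metallothionein *Mt2* was at 33.9, 41.6, 40.3 and 38.2 CPM with eGFP and 19.5, 17.7, 41.8 and 40.3 CPM with *nsHif1a*, so that only *nsHif1a* libraries 1 and 2 were low. Among 26 NRF2 target genes, 2 interactions were larger (*Gsta1*, *Taldo1*) and 1 smaller (*Slc7a11*). For 28 YAP, TGF-beta and SRF target genes these counts were 1 and 2, for 31 immediate early genes 3 and 3, and for 14 nuclear long RNA genes 1, *Neat1*, and 0. Over all genes tested, 2.77% of interactions were called larger and 4.50% smaller. The YAP list, at 3.57% and 7.14%, was near these shares.

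Of 20 circadian clock genes, 8 were called higher with *nsHif1a* in set 1-2 and 4 in set 3-4, and the 1 called interaction was that of *Rora*. *Bhlhe40*, a clock repressor and HIF target, rose by 1.13 ± 0.06 and 0.73 ± 0.06. None of the 20 cytosolic aminoacyl-tRNA synthetase genes had a called interaction (median -0.06).

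The 12 genes with the largest positive set difference (*Igsf11*, *Atp13a4*, *Lce1f*, *Lce1g*, *Samd7*, *Prr9*, *Serpinb9e*, *Rdh8*, *Sele*, *Ifi27l2b*, *Fibcd1* and *Car6*) were all called with *nsHif1a*, and 11 of them, all but *Car6*, also with eGFP. *Igsf11*, a cell adhesion protein, had 1.02 and 1.10 CPM in eGFP libraries 1 and 2, 9.76 and 9.16 in 3 and 4, 0.281 and 0.0701 in *nsHif1a* libraries 1 and 2 and 8.42 and 8.40 in 3 and 4. *Lce1g*, a protein of the cornified envelope of skin, went from 10.5 and 10.4 to 53.5 and 54.3 CPM with eGFP and from 0.112 and 0.210 to 51 and 38.2 CPM with *nsHif1a*. With 2 and 3 counts in *nsHif1a* libraries 1 and 2, the latter ratio is 284 with an exact 95% counting interval of 122 to 877. *Samd7*, a photoreceptor gene that silences non-rod genes in rods, had 0 counts in both of these libraries and 75 and 67 in *nsHif1a* libraries 3 and 4, at least 44.3-fold higher against a limit of 3 counts over the group.

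In the other direction, the 12 largest were *L1cam*, *H19*, *Plac8*, *Map3k7cl*, *Fmo1*, *Mymk*, *Ifit1bl1*, *Ogn*, *Gstt1*, *Apol6*, *Col11a1* and *Gdf6*. All were called with *nsHif1a*, and 5 of them with eGFP (*H19*, *Map3k7cl*, *Ogn*, *Col11a1* and *Gdf6*). *L1cam*, a neural adhesion molecule, was at 41.2 and 48.2 CPM in *nsHif1a* libraries 1 and 2 and at 3.74 and 4.67 CPM in 3 and 4, with 5.53, 4.99, 3.59 and 3.98 CPM in the eGFP libraries. *H19*, an imprinted growth-related long RNA, was at 63.5, 59.7, 5.67 and 7.81 CPM with *nsHif1a* and 7.88, 7.13, 3.71 and 5.78 CPM with eGFP. *Col11a1*, a fibrillar collagen chain, differed with both vectors, by -2.03 ± 0.37 and -2.46 ± 0.36.

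The interaction was largest for an overlapping group. Its 12 largest positive values belonged to *Samd7*, *Lce1g*, *Sprr2h*, *Krt16*, *Ccbe1*, *Prl2c3*, *Dynap*, *Ppbp*, *Rdh8*, *S100a7a*, *Inpp4b* and *Fabp4*. *Dynap*, an activator of AKT signalling, was at 52.4, 50.7, 70.5 and 74.0 CPM with eGFP and 5.17, 4.28, 72.4 and 68.2 CPM with *nsHif1a*, so that 2 libraries were low and the other 6 at least 50.7. *S100a7a*, an epidermal calcium-binding protein, had the same shape, at 27, 24, 33.5 and 33.1 CPM with eGFP and 2.92, 1.89, 27.9 and 28.5 CPM with *nsHif1a*. *Inpp4b*, a phosphoinositide phosphatase, was lower in set 3-4 with eGFP (-0.70 ± 0.15) and higher with *nsHif1a* (2.43 ± 0.30). *Krt16*, a keratin of stressed epithelium, rose with *nsHif1a* in set 3-4 by 2.09 ± 0.25 and was lower in set 1-2, with a difference of -1.78 ± 0.44.

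On the negative side stood *Aoc3*, *C1qtnf3*, *Mymk*, *Plac8*, *L1cam*, *Apol6*, *Aldh1a7*, *Ifit1bl1*, *Myog*, *Ccrl2*, *Slfn5* and *Tnfsf18*. *Ifit1bl1*, a relative of the IFIT genes, was at 40.5 and 40.2 CPM in *nsHif1a* libraries 1 and 2 and between 3.53 and 5.44 CPM in the other 6. *Ccrl2*, a receptor that binds chemerin, rose in both sets, by 4.10 ± 0.28 and 1.51 ± 0.26. *Aoc3*, a vascular amine oxidase, was at 3.20 and 3.72 CPM in *nsHif1a* libraries 1 and 2 and under 0.5 CPM elsewhere.

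2 further genes were chosen for their pattern after their values were seen and are given as a description. *Selp*, the adhesion receptor P-selectin, measured 116 and 118 CPM in eGFP libraries 1 and 2, 253 and 245 in 3 and 4, 15.1 and 12.1 in *nsHif1a* libraries 1 and 2 and 209.9 and 214 in 3 and 4. *Havcr2*, the immune receptor TIM-3, had 22, 22.8, 49.8 and 49.4 CPM with eGFP and 3.87, 2.87, 49.9 and 47.8 CPM with *nsHif1a*. For both genes the lowest pair was *nsHif1a* 1 and 2, the next eGFP 1 and 2, and the 2 pairs of set 3-4 were highest.

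**Figure D4:**
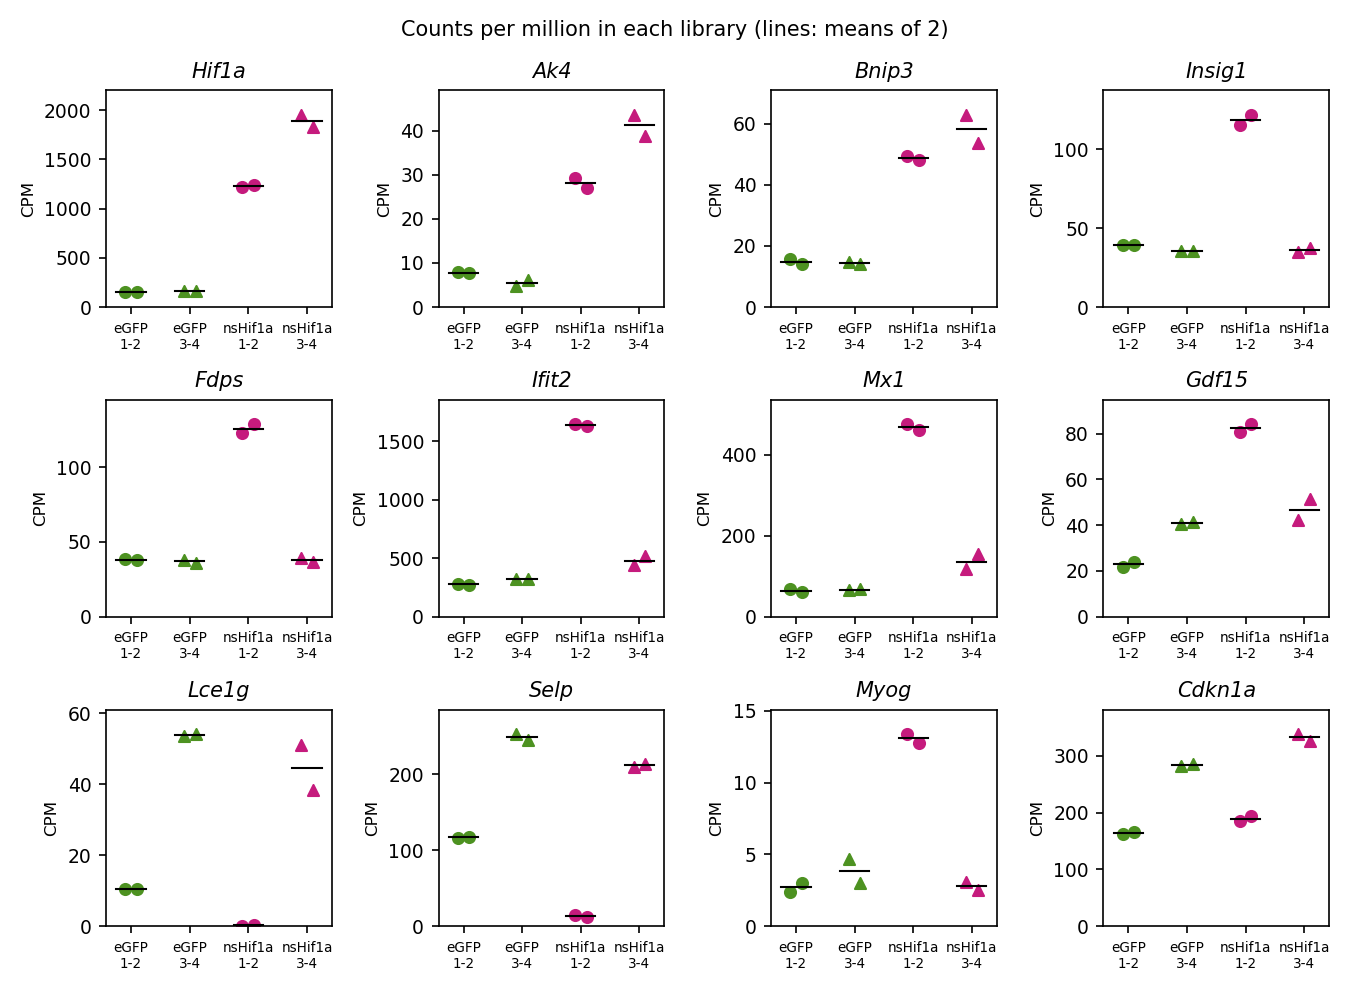
Levels in CPM of 12 genes in each of the 8 libraries (green, eGFP; magenta, *nsHif1a*; circles, set 1-2; triangles, set 3-4; bars, means of 2), with each axis starting at 0. *Ak4* and *Bnip3* follow the vector in both sets, *Insig1*, *Fdps*, *Ifit2*, *Mx1* and *Myog* are high in *nsHif1a* libraries 1 and 2, and *Lce1g*, *Selp* and *Cdkn1a* are higher in set 3-4 with both vectors.

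Markers of cell types other than photoreceptors did not all follow the sets. Fibroblast markers, 7 tested of 11, had a median set difference of -0.30 with eGFP and -1.27 with *nsHif1a*, with 0 and 4 called lower and 0 and 1 higher. Their summed level was 1029 and 1046 CPM in *nsHif1a* libraries 1 and 2 and 423.6 to 505 CPM in the other 6, and *Dcn*, a defining fibroblast proteoglycan, had 0 counts. *Col3a1*, an interstitial collagen, was at 408, 397, 343 and 365 CPM with eGFP and 869, 884, 346 and 383 CPM with *nsHif1a*, and *Col1a1* had an interaction of -1.22 ± 0.10. In the broader list of 37 extracellular matrix genes, 9 interactions were smaller in set 3-4 and 1 larger (median -0.20), and *Timp3*, a metalloproteinase inhibitor, had one of -1.21 ± 0.21. Of 13 microglia and macrophage markers, 5 were tested and 4 (*C1qa*, *C1qb*, *C1qc* and *Adgre1*) had 0 counts in all libraries. Their summed level was 28.8 and 31.2 CPM in eGFP libraries 1 and 2, 33.8 and 34.5 in 3 and 4, 48.7 and 47.2 in *nsHif1a* libraries 1 and 2 and 29.3 and 32.1 in 3 and 4, so that it ran in opposite directions with the 2 vectors. *Tmem119* alone made up most of it, at 43.4 and 42.2 CPM in *nsHif1a* libraries 1 and 2 and 14.1 to 20.1 CPM elsewhere. *Cd68*, a lysosomal glycoprotein of macrophages and other cells, was at 7.4, 8.63, 14.7 and 15.8 CPM with eGFP and 3.93, 3.51, 12.6 and 14 CPM with *nsHif1a*. Endothelial and mural cell markers summed to 232 to 253 CPM in the 4 libraries of set 1-2 and 335 to 354 CPM in those of set 3-4, with *Cldn5* and *Kcnj8* at 0. Most of this difference was that of *Cspg4*, a pericyte proteoglycan, at 138, 145, 214 and 226 CPM with eGFP and 111, 97.6, 211 and 215 CPM with *nsHif1a*. Of the 7 tested, 2 were called higher and 0 lower with eGFP, and 3 higher and 1 lower with *nsHif1a*. *Cdh5* was at 4.57, 3.76, 4.59 and 3.68 CPM with eGFP and 0.562, 0.841, 5.03 and 3.49 CPM with *nsHif1a*. *Pecam1* ran the other way with *nsHif1a*, at 1.46, 1.61, 0.643 and 0.828 CPM. *Kdr*, an endothelial receptor, was not called with either vector. Mueller glia and astrocyte markers summed to 2542 and 2729 CPM in *nsHif1a* libraries 1 and 2 and 3169 to 3329 CPM elsewhere, nearly all of it from the filament protein gene *Vim*. The 7 tested members were mixed, with 0 called higher and 1 lower in set 3-4 with eGFP, and 2 higher and 2 lower with *nsHif1a*. In *nsHif1a* libraries 1 to 4, *Glul* was at 39.9, 38.8, 91.4 and 91.9 CPM and *Dkk3* at 24.7, 23.8, 3.57 and 3.91 CPM. Retinal interneuron and ganglion cell markers summed to 208 and 205 CPM in those 2 libraries and 145 to 170 CPM elsewhere, and retinal pigment epithelium markers to under 1.3 CPM in all. Fewer cells of a type and less RNA per cell cannot be told apart in these bulk libraries, and the part of these markers in the program differences was not tested.

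Muscle genes were looked at after *Mymk* and *Myog* had appeared among the largest interactions. *Myog*, which drives muscle differentiation, was at 13.4 and 12.8 CPM in *nsHif1a* libraries 1 and 2 and between 2.41 and 4.65 CPM elsewhere. *Mymk*, the fusogen myomaker, was at 6.68 and 7.08 CPM in these libraries and under 1 CPM elsewhere, and *Tnnt1*, slow skeletal troponin T, at 15.2 and 14 CPM. Of the 11 muscle genes looked at, 7 had a called interaction that was smaller in set 3-4 (*Myog*, *Mymk*, *Tnnt1*, *Chrng*, *Chrnd*, *Myl4* and *Tnnc1*), against 4.50% of all genes tested. The count includes *Myog* and *Mymk*, which prompted the look, and the others were chosen with the data seen. The other 4 did not, and of these *Chrna1* and *Acta1* were called higher in set 3-4 with both vectors and *Tnnt2* with *nsHif1a*. *Chrna1*, the muscle acetylcholine receptor subunit, differed by 0.66 ± 0.07 and 0.68 ± 0.07, and *Myod1*, the myogenic master regulator, was lower with both, at -0.91 ± 0.12 and -1.19 ± 0.12.

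One chromosome differed along its length between the sets, in the same direction with both vectors. This was noticed after the data were seen. For the 391 genes of chromosome 12 with at least 5 CPM, the median log2 difference between set 3-4 and set 1-2 was 0.22 with eGFP and 0.24 with *nsHif1a*. On the other 19 chromosomes it ranged from -0.05 to 0.00 and from -0.04 to 0.03. Of these 391 genes, 88.5% were higher in set 3-4 with eGFP and 83.1% with *nsHif1a*, where the other chromosomes ranged from 34.1% to 51.3% and from 40.2% to 54.4%.

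Every library followed its set. The median deviation of chromosome 12 genes from their mean over all libraries of both vectors was -0.10 and -0.11 in eGFP libraries 1 and 2 and 0.11 and 0.10 in 3 and 4. With *nsHif1a* it was -0.11 in libraries 1 and 2 and 0.13 and 0.12 in 3 and 4. The difference was present along the whole chromosome, with medians of 0.18 to 0.23 with eGFP and 0.17 to 0.29 with *nsHif1a* in 6 windows of 20 Mb. The response to *nsHif1a* showed no such difference, with chromosome 12 medians of -0.02 in set 1-2 and 0.00 in set 3-4. At an adjusted *p* under 0.05 without a fold threshold (limma), 195 of 608 chromosome 12 genes tested were higher in set 3-4 with eGFP, or 32.1%, against 6.88% of the genes elsewhere. With *nsHif1a* it was 247, or 40.6%, against 17.4% elsewhere.

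**Figure D5:**
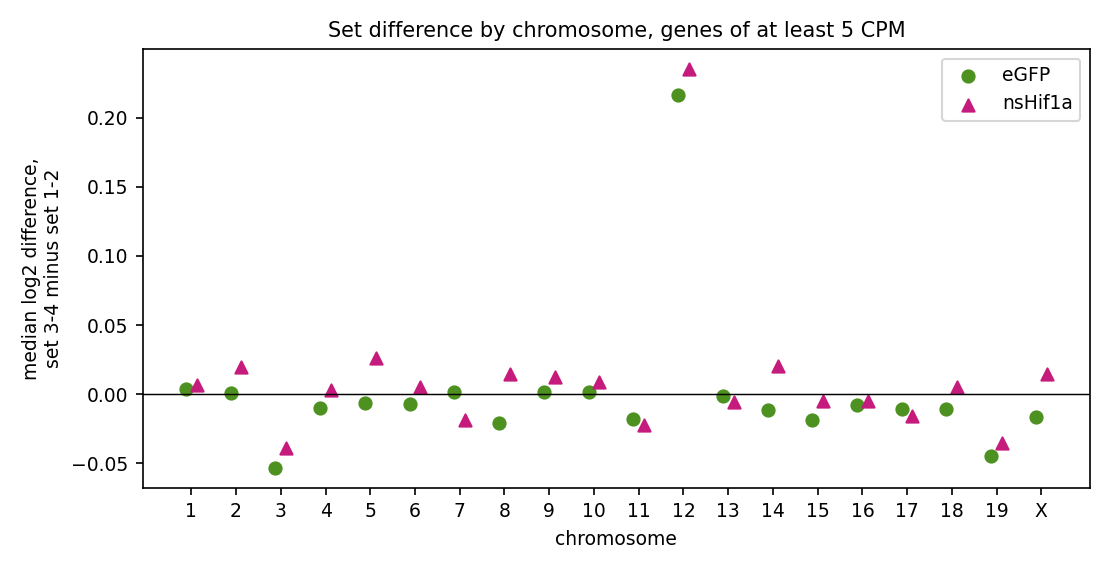
Median log2 difference between set 3-4 and set 1-2 for the genes of each chromosome with at least 5 CPM (circles, eGFP; triangles, *nsHif1a*). Chromosome 12 lies at 0.22 and 0.24, and the other 19 chromosomes between -0.05 and 0.03.

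Of the 20 genes of the program and marker lists that lie on chromosome 12, 18 had a positive set difference with eGFP and 14 with *nsHif1a*, with 2 and 6 called higher and 0 and 2 lower. Among all 608 chromosome 12 genes tested, 5.26% and 13.3% were called higher and 0.164% and 3.95% lower. Positive differences made up 88.5% and 83.1% of the chromosome 12 genes of at least 5 CPM. *Hif1a* differed by 0.10 ± 0.05 with eGFP and was not called. *Rrm2*, *Dnajb9* (an ER co-chaperone), *Sel1l* (a subunit of the ERAD ligase), *Wars1* (a tryptophanyl-tRNA synthetase) and *Egln3* differed by 0.63 ± 0.03, 0.62 ± 0.09, 0.33 ± 0.04, 0.32 ± 0.05 and 0.44 ± 0.13 with eGFP, of which *Rrm2* and *Dnajb9* were called. None of the largest interferon or cholesterol interactions named above lies on this chromosome.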

How the data were processed

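RNA was measured in 8 libraries of transfected 661W cells. Per the labels and the study's methods, poly(A) RNA was made into stranded libraries, reads were aligned to GRCm39 with Rsubread, and the authors deposited raw counts per gene from featureCounts, counted by strand. Of 78239 genes, 78168 were named from the gene annotation.

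Genes passing filterByExpr (minimum count 10) were scaled with TMM in edgeR 4.0.16 and fitted in limma 3.58.1 (R 4.3.3) by voom with sample quality weights, on 4 groups of vector and set, or with vector and set as separate terms. *P*-values were adjusted after Benjamini-Hochberg over all genes tested. Standard errors, CPM from the TMM-scaled totals of the genes tested and medians of lists were computed from these counts. Depth was 13424326 to 17809585 counts per library. Intervals and limits on counts cover counting error only. The division, the lists and the other members described were chosen with earlier results of these data known.

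For each comparison the 12 genes per direction with the largest called difference and a mean of at least 1 CPM were named, without predicted genes. Of each list, up to 4 members with the largest difference were tabulated, and those named, like any further gene, were picked with their values in view. Some list members are not reported here by name. edgeR's quasi-likelihood test, DESeq2 1.42.0, other filters and scaling, a replicate block and the omission of each library were tried as alternatives. The main steps were tested on simulated data. Promoter windows were taken from RefSeq (GRCm38.p6) and were not mixed with coordinates of the count table.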

Additional observations from a re-analysis of the deposited data

Results flagged for a closer look

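The response to *nsHif1a* differed between the 2 sets by the test of the interaction itself (limma, Benjamini-Hochberg adjustment) for 469 genes with a more positive and 760 with a less positive difference in set 3-4. Single libraries far from the rest were not looked for within the groups of 2, which are too small. Among the 4 libraries of each vector, the ratio of the largest end gap to the range flagged no library in any list mean. The range includes the difference between the sets, so where the sets differ this ratio can hardly flag a single library.

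The largest positive log2 interactions belonged to *Samd7* (5.73), *Lce1g* (5.56), *Sprr2h* (5.12), *Krt16* (3.87), *Ccbe1* (3.52), *Prl2c3* (3.42), *Dynap* (3.40), *Ppbp* (3.39), *Rdh8* (3.26), *S100a7a* (3.15), *Inpp4b* (3.14) and *Fabp4* (3.10). In *nsHif1a* libraries 1 and 2, *Samd7*, *Lce1g*, *Sprr2h*, *Rdh8* and *Fabp4* had at most 3 counts each, so their fitted values depend on the prior count. From the counts, *Sprr2h* was 128 times higher in *nsHif1a* libraries 3 and 4 than in 1 and 2 (95% interval 22.6 to 5102) and *Ccbe1* 11.8 times (6.87 to 22.1).

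The largest negative values belonged to *Aoc3* (-4.51), *C1qtnf3* (-4.06), *Mymk* (-3.35), *Plac8* (-3.12), *L1cam* (-2.91), *Apol6* (-2.90), *Aldh1a7* (-2.88), *Ifit1bl1* (-2.86), *Myog* (-2.73), *Ccrl2* (-2.59), *Slfn5* (-2.56) and *Tnfsf18* (-2.56). In each case the test cannot tell the set apart from the 2 *nsHif1a* libraries of set 1-2.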

How the results depend on the processing

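The count of genes called between the sets with vector as a covariate was the least stable value. Leaving out 1 library gave 229 to 916 higher and 194 to 1187 lower genes, and each of the 8 libraries moved it by over 1.5 times. Without *nsHif1a* libraries 1 and 2 the counts were 232 and 166, and the set effects of *Mymk* (0.27) and *Mx1* (0.041) turned positive without being called. With the counts of each pair added, which leaves 1 residual degree of freedom, limma called 0 and 0 genes, with 2352 of 18117 at an unadjusted *p* under 0.05. Taking the mean of the 2 set effects gave 699 and 693, and edgeR's quasi-likelihood test 487 and 550.

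With the replicate block the set effect had 281 higher and 307 lower genes and the interaction 442 and 729. For the set effect, the error of this fit leaves out the spread between replicate numbers of a set. Within the 4 groups same-numbered libraries of the 2 vectors did not deviate together (r of -0.03 and 0.01). With groups of 2, this gives only 1 value per set. By deviation from the mean of the vector, 5 of 8 libraries correlated best with their own number, among them all those of replicates 3 and 4. These values cannot decide whether the numbers pair the libraries. The block could not be fitted to the set effect of 1 vector.

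With at least 10 CPM in 2 libraries fewer genes were tested, and the counts of higher and lower genes were 208 and 317 for the set effect, 711 and 317 for *nsHif1a* in set 1-2, 104 and 11 in set 3-4, 120 and 88 between the eGFP sets and 458 and 676 between the *nsHif1a* sets, with 276 larger interactions. DESeq2 called 295 larger and 494 smaller interactions, 119 and 11 genes for *nsHif1a* in set 3-4, and 125 and 100 between the eGFP sets. The cause was not tested. Without a fold threshold the counts were 1741 and 1693 for the set effect, 1606 and 1573 for the interaction, 2953 and 2947 for *nsHif1a* in set 1-2, 677 and 355 in set 3-4, 1316 and 1022 between the eGFP sets, and 3076 and 3041 between the *nsHif1a* sets.

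Leaving out 1 library gave 374 to 472 larger and 595 to 732 smaller interactions, 1056 to 1315 higher and 555 to 689 lower genes for *nsHif1a* in set 1-2, and 115 to 189 and 16 to 43 in set 3-4, the lowest without eGFP library 3 (115) and without *nsHif1a* library 4 (16). It gave 164 to 233 and 99 to 174 genes between the eGFP sets, with 99 without eGFP library 3 and 112 without eGFP library 4, and 779 to 1000 and 1018 to 1302 between the *nsHif1a* sets. The set 3-4 count of lower genes was 23 without eGFP library 3.

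The median interaction ranged over left-out libraries from 0.14 to 0.19 for HIF target, -0.35 to -0.30 for integrated stress response, -0.61 to -0.50 for interferon-stimulated, -0.53 to -0.43 for MHC class I, -0.43 to -0.27 for NF-kB, -1.03 to -0.92 for cholesterol, -0.35 to -0.29 for fatty acid and -0.85 to -0.57 for histone genes. With no filter it was -0.25 for NF-kB, -0.30 for fatty acid and -0.77 for histone genes, and with at least 10 CPM -1.0 for cholesterol and -0.72 for histone genes. Medians near 0 changed sign, for p53 targets between the *nsHif1a* sets (-0.0068 with no filter, -0.0026 to 0.089 over left-out libraries) and for clock genes between the eGFP sets (-0.0082 with no filter, -0.022 to 0.061 over left-out libraries). The chromosome 12 medians stayed positive, at 0.20 to 0.22 and 0.24 to 0.25 over left-out libraries, and at 0.20 (no filter) and 0.22 (at least 10 CPM) with eGFP and 0.25 (at least 10 CPM) with *nsHif1a*. Depth limits genes near the limit of 3 counts, which is 0.168 to 0.225 CPM.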
